A study of Mus musculus with 2 samples.

Results

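Fos, Fosb, Jun, Junb, Egr1, Ier2, Atf3, Zfp36, Dusp1 and Hspa1a are a set of immediate early and stress response genes. They were taken by name, as 10 of the 27998 genes listed for each single-cell library, and none was left out for a low count. Immediate early genes are transcribed within minutes of a growth signal or an injury, from promoters that need no new protein, and their messages are short-lived. Fos and Jun family proteins pair as the transcription factor AP-1, Egr1 is a zinc finger factor of the same wave, and Zfp36 and Dusp1 are induced with them and end the response. The set is known as a sign of warm enzymatic dissociation, the step that frees the stromal cells of fat from the tissue.

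The cells came from the stromal vascular fraction of epididymal fat of male C57BL/6J mice, given as C57BL/6 in the sample labels, prepared with a mouse adipose tissue dissociation kit and run on the 10x Chromium 3′ v3 assay. The only difference between the groups in the labels was the diet, low fat (LFD) or high fat (HFD), fed for 24 weeks from 6 weeks of age. The labels do not fully accord on it. Titles and sample characteristics give 1 library as low fat and the other as high fat, and were followed here, while the treatment protocol text names a low fat diet for both, so each HFD over LFD ratio rests on the titles and characteristics. There was 1 library per diet, the number of mice behind each was not stated in the sources used here, and no sample had been taken without dissociation. No test between diets was therefore made, no p-value is given, and diet, animal, dissociation run and library cannot be told apart. Every interval in parentheses is an exact 95% interval (Poisson for a level, Clopper-Pearson for a share, conditional binomial for a ratio) and covers counting error only.

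Counts are of unique molecular identifiers (UMIs), tags that mark each transcript captured in a droplet. Barcodes with at least 200 genes numbered 1057 of 1113 in the LFD library and 1117 of 1144 in the HFD library, with 7279955 and 8389196 UMIs, and 0 barcodes were shared by the libraries. Median depth was 6523 UMIs on LFD and 6598 UMIs on HFD. A barcode was placed in a class by raw UMIs of marker genes: at least 10 of Dcn for fibroblasts, 3 of Cdh5 and Cldn5 for endothelial cells, 5 of Rgs5, Kcnj8, Abcc9 and Notch3 for mural cells, 10 of C1qa, C1qb and C1qc for macrophages and 2 of Cd3d, Cd3e and Cd3g for T cells. Fibroblasts with at least 3 UMIs of Pi16, Dpp4 and Sema3c were kept apart as Pi16-high. Barcodes that met a single rule numbered 781 on LFD and 753 on HFD, 210 and 243 met none, and 66 and 121 met several. Only 5 and 6 barcodes were mural alone, while 51 and 92 met the endothelial and mural rules together, and these were held as a class of their own, a choice made after the data were seen.

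Most markers that the rules did not use were highest in their own class, in CPM, meaning UMIs of the gene per 1000000 UMIs of its class. Pdgfra stood at 458 and 320.2 CPM in Pi16-low fibroblasts on LFD and HFD, Pecam1 at 867 and 1024 CPM in endothelial barcodes, Adgre1 at 439 and 443 CPM in macrophages, and Cd28 at 323 and 341 CPM in T cells. Some classes were not pure. The mural gene Acta2 stood at 80.2 and 135 CPM in Pi16-high fibroblasts, no lower than the 75.5 and 86.1 CPM of endothelial and mural barcodes. Pi16-high fibroblasts also held the mesothelial genes Upk3b at 506 and 459 CPM and Msln at 236 and 204 CPM. T cells on LFD held the macrophage gene Mrc1 at 91.5 CPM and the B cell gene Ms4a1 at 51.8 CPM, both at 0 in the 21 HFD barcodes. The endothelial and mural class had Pdgfrb at 223 and 271 CPM beside Pecam1 at 751 and 762 CPM, and a median of 13270 and 9029 UMIs per barcode against 4318 and 3156 UMIs in endothelial barcodes. Endothelial barcodes held the adipocyte genes Adipoq, Plin1 and Cidec at a summed 261 and 87.1 CPM and haemoglobin at 5853 and 8006 CPM, and endothelial and mural barcodes 179 and 116 CPM and 9019 and 5293 CPM. The part of these in the diet ratios of both classes was not tested. Scrublet, a caller of droplets with more than 1 cell, marked 0 of the endothelial and mural barcodes on either diet.

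The places of the genes in GRCm38 (GENCODE M21) are Fos (ENSMUSG00000021250, chromosome 12, 85473890 to 85477273), Fosb (ENSMUSG00000003545, chromosome 7, 19302696 to 19310051), Jun (ENSMUSG00000052684, chromosome 4, 95049034 to 95052222), Junb (ENSMUSG00000052837, chromosome 8, 84974484 to 84978718), Atf3 (ENSMUSG00000026628, chromosome 1, 191170296 to 191218039), Ier2 (ENSMUSG00000053560, chromosome 8, 84661331 to 84662852), Zfp36 (ENSMUSG00000044786, chromosome 7, 28376784 to 28380253), Dusp1 (ENSMUSG00000024190, chromosome 17, 26505590 to 26562128) and Hspa1a (ENSMUSG00000091971, chromosome 17, 34969190 to 34972156). Their levels varied together from cell to cell, as given further on, so the bases just upstream of the RefSeq starts (GRCm38.p6) were read for motifs of known inducible factors on both strands. A 250-base window was found for 8 of the 10, all but Egr1 and Ier2. Only 1 window per gene was read, so sites further upstream, or in Egr1 and Ier2, were not searched for. TGACG, the core shared by CREB and ATF sites, was in 5 of 8 windows (Fos, Fosb, Junb, Atf3 and Dusp1) and in 17.8% of 32851 mouse windows. The full site TGACGTCA, which contains that core, was in Dusp1 and in 1.55% of all windows. The CArG box of serum response factor was in Zfp36 and in 1.47% of all windows. GCGNGGGCG, the site of EGR proteins, was in Fosb and Zfp36 and in 4.7% of all. GAANNTTC, the core of a heat shock element, was in Jun and Hspa1a and in 6.69% of all. TATAAA was in Fos and in 12.4% of all, and TGANTCA, the AP-1 site itself, was in 0 of 8 windows and in 6.75% of all. A match is a description of the letters and not a bound site. The 150 bases before the start are given for the 6 genes whose window held a motif beyond the short TGACG core, written 5′ to 3′ with all matches in capitals. The Zfp36 and Dusp1 stretches and the end of the Fosb stretch lie inside the longer GENCODE bounds of these genes.
Fos (chr12:85473740-85473889, plus strand): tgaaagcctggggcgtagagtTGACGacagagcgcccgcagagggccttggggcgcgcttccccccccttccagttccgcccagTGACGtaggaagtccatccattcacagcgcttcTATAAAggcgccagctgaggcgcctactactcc
Fosb (chr7:19310046-19310195, minus strand): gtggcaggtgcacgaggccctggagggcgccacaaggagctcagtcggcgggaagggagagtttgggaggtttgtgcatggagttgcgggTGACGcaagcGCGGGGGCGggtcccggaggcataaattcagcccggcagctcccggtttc
Jun (chr4:95052223-95052372, minus strand): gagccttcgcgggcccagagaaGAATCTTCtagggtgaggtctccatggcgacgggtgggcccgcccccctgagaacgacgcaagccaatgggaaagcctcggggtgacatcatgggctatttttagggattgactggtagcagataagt
Zfp36 (chr7:28379229-28379378, minus strand): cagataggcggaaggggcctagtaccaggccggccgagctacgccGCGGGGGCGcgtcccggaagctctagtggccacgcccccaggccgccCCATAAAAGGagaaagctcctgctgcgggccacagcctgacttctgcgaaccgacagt
Dusp1 (chr17:26508473-26508622, minus strand): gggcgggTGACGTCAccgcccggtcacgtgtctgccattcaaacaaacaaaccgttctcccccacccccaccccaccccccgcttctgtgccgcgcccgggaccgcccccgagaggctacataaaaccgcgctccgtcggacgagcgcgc
Hspa1a (chr17:34972157-34972306, minus strand): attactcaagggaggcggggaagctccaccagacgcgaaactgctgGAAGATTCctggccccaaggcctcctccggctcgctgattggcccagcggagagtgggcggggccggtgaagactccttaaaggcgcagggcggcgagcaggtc

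Together the 10 genes made up 1.54% (1.53 to 1.55) of all UMIs on LFD and 1.16% (1.15 to 1.16) on HFD. The classes differed in their summed share. On LFD their summed share was highest in Pi16-low fibroblasts at 2.07% (2.05 to 2.1), followed by endothelial and mural barcodes at 1.97% (1.94 to 2.01), endothelial barcodes at 1.66% (1.62 to 1.69), Pi16-high fibroblasts at 1.41% (1.4 to 1.43), macrophages at 1.37% (1.35 to 1.39) and T cells at 0.673% (0.646 to 0.702). On HFD the endothelial and mural barcodes stood first at 1.78% (1.76 to 1.81), then Pi16-low fibroblasts at 1.67% (1.65 to 1.69), endothelial barcodes at 1.39% (1.36 to 1.42), Pi16-high fibroblasts at 1.24% (1.21 to 1.26), macrophages at 0.796% (0.786 to 0.807) and T cells at 0.496% (0.435 to 0.564). The pooled intervals of neighbours did not overlap within a diet, yet single barcodes of neighbouring classes overlapped widely. In Pi16-low fibroblasts on LFD the share per barcode ran from 0.772% at the 10th percentile to 2.96% at the 90th, and in LFD macrophages from 0.69% to 2.13%. The LFD order of Pi16-high fibroblasts over macrophages held for the pooled totals only. Their medians per barcode were 1.37 and 1.46%. With haemoglobin and mitochondrial UMIs left out, their pooled intervals overlapped (1.46 to 1.49 and 1.44 to 1.48). The 5 and 6 barcodes that were mural alone stood at 1.87% (1.67 to 2.08) and 1.84% (1.58 to 2.14).

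**Figure D1:**
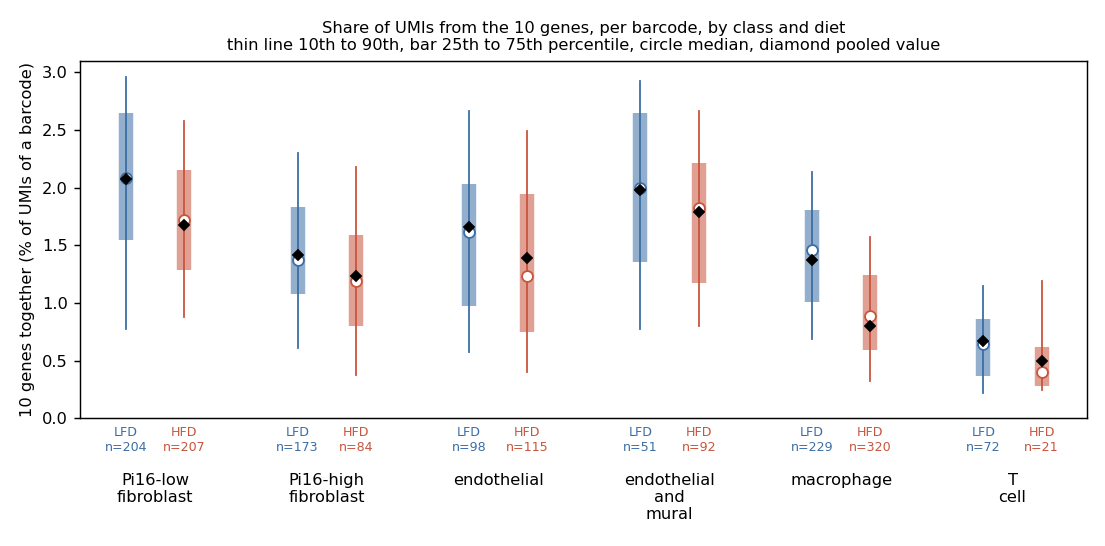
Share of each barcode's UMIs that came from the 10 genes (percent, linear axis), by class, with LFD in blue and HFD in red and the number of barcodes under each. Thin lines span the 10th to 90th percentile, bars the 25th to 75th, circles mark medians and diamonds the pooled value, which was lower on HFD in all 6 classes and lowest in T cells.

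Nearly every stromal and myeloid barcode held some of these messages. A barcode with no UMI of any of the 10 was seen in 4 of 204 LFD and 4 of 207 HFD Pi16-low fibroblasts, 1 of 229 LFD and 3 of 320 HFD macrophages. A median of 9 of the 10 genes was detected per Pi16-low fibroblast and per macrophage on either diet, against 4 and 3 per T cell. After each barcode was thinned to 1000 UMIs, the medians were 7 and 6 genes in Pi16-low fibroblasts, 6 and 5 in macrophages and 3 and 2 in T cells, on LFD and HFD. No class in these libraries is known to lack the genes, so the 56 LFD and 27 HFD barcodes under 200 genes were taken as a stand-in for free RNA. Haemoglobin made up 86.7 and 73.9% of their UMIs, and their median depth was 1357 and 712 UMIs. Whether these UMIs were free RNA or came from cells in these droplets was not tested. Of the UMIs there that were not haemoglobin, the 10 genes gave 0.217% (0.136 to 0.328) on LFD and 0.43% (0.281 to 0.629) on HFD, from 22 and 26 UMIs. The LFD class shares were above the LFD interval. The HFD level depends on what is left out, since mitochondrial UMIs made up 13.6% of all UMIs of the HFD barcodes under 200 genes. With haemoglobin and mitochondrial UMIs left out of every total, the barcodes under 200 genes stood at 0.344% (0.215 to 0.52) on LFD and 0.892% (0.584 to 1.3) on HFD. On that basis the classes on LFD again lay above, while on HFD macrophages at 0.849% (0.838 to 0.86) and Pi16-high fibroblasts at 1.29% (1.27 to 1.32) lay within the interval and T cells at 0.53% (0.464 to 0.602) below it. The HFD T cell, macrophage and Pi16-high fibroblast shares were therefore not shown to lie above the level of these barcodes, which rests on 26 UMIs.

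Fos and Fosb encode the Fos partners of AP-1. Fos was the most abundant of the 10 genes in Pi16-low fibroblasts on both diets and in Pi16-high fibroblasts, with 5119 CPM (5004 to 5235) on LFD and 4014 CPM (3917 to 4114) on HFD in Pi16-low fibroblasts. Endothelial and mural barcodes held 4450.1 and 3518 CPM, Pi16-high fibroblasts 3507 and 2982 CPM, endothelial barcodes 3224 and 2569 CPM, macrophages 2268 and 1584 CPM and T cells 549 and 256 CPM. Fos was thus lower on HFD in each of the 6 classes. Fosb ran from 1483 CPM (1422 to 1546) in LFD Pi16-low fibroblasts to 192 CPM (87.7 to 364) in HFD T cells, and macrophages had 449 and 269.5 CPM. Fos UMIs outnumbered Fosb UMIs by a factor of 3.45 (3.29 to 3.62) in LFD Pi16-low fibroblasts and 5.05 (4.64 to 5.49) in LFD macrophages, while LFD T cells held them nearly evenly, at 1.01 (0.817 to 1.25). A UMI stands for a captured transcript of any length, so such ratios compare molecules, within the capture rate of each message.

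Jun and Junb encode the Jun partners. Junb was the message that all classes shared most evenly, from 4205 CPM (4102 to 4311) in LFD Pi16-low fibroblasts to 1969 CPM (1919 to 2021) in HFD macrophages, and T cells kept 3470.1 CPM (3271 to 3678) on LFD and 3046 CPM (2567 to 3588) on HFD. Jun was not shared in this way. It stood at 2684 and 2214 CPM in Pi16-low fibroblasts, 2956 and 2895 CPM in endothelial and mural barcodes, 1604 and 571 CPM in macrophages and 137 and 192 CPM in T cells, on LFD and HFD. In LFD T cells Junb therefore took 51.5% of the UMIs of the 10 genes, against 20.3% in Pi16-low fibroblasts, and Jun 2.04% against 12.9%. Macrophages had 1.75 (1.66 to 1.84) UMIs of Junb for each UMI of Jun on LFD and 3.45 (3.26 to 3.64) on HFD. This shift in the whole class does not depend on the total used for scaling. The class was not the same mixture on the 2 diets, as given further on. Atf3, a stress-induced partner and repressor in the same protein family, stood between 422 and 832 CPM on LFD outside T cells, with its highest level in Pi16-low fibroblasts, and at 262 CPM in T cells. Jun and Junb each overlap a gene on the opposite strand (Junos and Prdx2), and Atf3, Zfp36 and Hspa1a a predicted gene model on the opposite strand.

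Egr1 (ENSMUSG00000038418), the zinc finger factor, was abundant outside T cells on LFD, with 3827 CPM (3689 to 3969.6) in endothelial and mural barcodes, 3627 CPM (3531 to 3725) in Pi16-low fibroblasts and 2594 CPM (2513 to 2678) in macrophages. On HFD the same classes held 3372, 2782 and 951 CPM, so the macrophage level stood apart from the others. T cells had 71 and 3 UMIs on LFD and HFD. Ier2, a short early response gene whose product acts in the nucleus, was highest in the classes with endothelial genes, at 1183 and 1067 CPM in endothelial and 1089 and 1232 CPM in endothelial and mural barcodes. Pi16-high fibroblasts had 476 and 460.4 CPM, and T cells 442 and 724 CPM, the highest of any member but Junb in HFD T cells.

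Zfp36 encodes tristetraprolin, which binds AU-rich messages and hastens their decay, and Dusp1 a phosphatase that switches off MAP kinases. On LFD Zfp36 was highest in Pi16-low fibroblasts at 1069.7 CPM (1018 to 1124) and in macrophages at 1049 CPM (998 to 1103), and these intervals overlapped. On HFD the fibroblasts were at 603 CPM and the macrophages at 724 CPM, so macrophages then stood above. Dusp1 was highest in macrophages on LFD at 1236 CPM (1180.0 to 1294), and on HFD the macrophage level of 966 CPM lay under the 1073 CPM of endothelial and mural and the 1065 CPM of endothelial barcodes. Both feedback genes were present in T cells on LFD, at 460.4 and 643 CPM. Dusp1 overlaps gene models on both strands, including a pair on its own strand.

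Hspa1a, an inducible chaperone of the Hsp70 family that heat shock factor switches on, was the rarest of the 10. It stood at 202 CPM (179.8 to 226) in LFD macrophages and 77.9 CPM (68.1 to 88.7) in HFD macrophages, at 163 and 181 CPM in endothelial and mural barcodes and at 89.9 and 78.8 CPM in Pi16-low fibroblasts. In macrophages detection was lower on HFD too. A UMI was seen in 55% of LFD and 30% of HFD macrophages, and after thinning in 18.3 and 7.84%. In 2 other classes the share of barcodes with a UMI did not follow the level, with 66.7 and 57.6% of endothelial and mural barcodes and 33.3 and 35.3% of Pi16-low fibroblasts on LFD and HFD, while after thinning it did, with 9.8 and 19.8% and 8.54 and 7.32%. In T cells it was seen in 4.17% of 72 LFD barcodes (3 UMIs) and 0 of 21 HFD barcodes, which allows up to 14.3% of barcodes with a UMI and 63.9 CPM when 3 counts are taken as the limit of a count of 0. Hspa1a has a near copy, Hspa1b, 85.3% identical over the whole transcript and 47% over the last 500 bases, where a 3′ assay reads. Hspa1b had 452 and 320 UMIs beside 754 and 744 of Hspa1a. How reads from the stretches they share were divided was not tested.

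**Figure D2:**
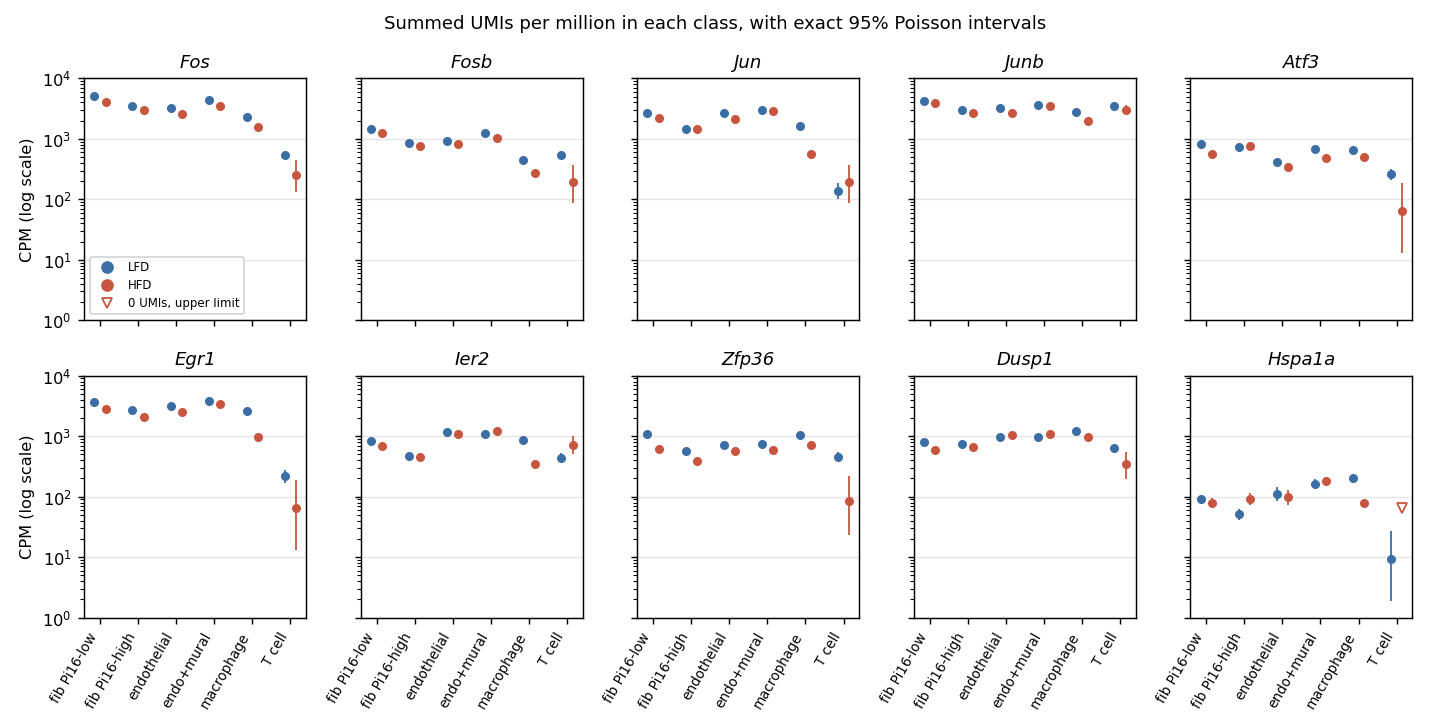
Level of each of the 10 genes in CPM (log axis) in the 6 classes, with LFD in blue, HFD in red and exact 95% Poisson intervals, which are narrower than the points for most genes. Junb varies least between classes, most other genes are lowest in T cells, and the open triangle marks the upper limit for Hspa1a in HFD T cells, where 0 UMIs were seen.

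The second question of the design, LFD against HFD, was asked of each class as the ratio of CPM, HFD over LFD. The summed share of the 10 genes was lower on HFD in all 6 classes, with a ratio of 0.581 (0.57 to 0.592) in macrophages, 0.737 (0.641 to 0.844) in T cells, 0.807 (0.794 to 0.821) in Pi16-low fibroblasts, 0.839 (0.813 to 0.865) in endothelial barcodes, 0.873 (0.853 to 0.893) in Pi16-high fibroblasts and 0.904 (0.884 to 0.924) in endothelial and mural barcodes. The macrophage interval lay apart from the rest, and the T cell interval overlapped those of Pi16-low fibroblasts and endothelial barcodes. Barcodes that met no rule gave 0.742 (0.715 to 0.77). Among housekeeping genes Actb stood at 1.06 (1.02 to 1.1) in Pi16-low fibroblasts, 1.23 (1.2 to 1.25) in macrophages and 0.759 (0.682 to 0.843) in T cells, and Eef1a1 at 1.06 (1.02 to 1.1), 1.3 (1.25 to 1.34) and 1.05 (0.917 to 1.21).

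Counted gene by gene, the ratio was below 1 for 10 of 10 in Pi16-low fibroblasts, where 50.8% of all genes with at least 50 UMIs were below 1, and for 10 of 10 in macrophages, where the background was 51.1%. It was below 1 for 9 of 10 in endothelial barcodes (background 48.7%), 7 of 10 in Pi16-high fibroblasts (50.3%), 7 of 10 in endothelial and mural barcodes (47.5%) and 7 of the 9 with 50 UMIs in T cells (53.3%). Differences of at least 2-fold were rarer. In Pi16-low fibroblasts 0 of 10 were at least 2-fold lower, against 2.04% of all genes, and likewise 0 of 10 in Pi16-high fibroblasts (1.74%), endothelial barcodes (1.5%) and endothelial and mural barcodes (0.788%). Macrophages had 4 of 10 against 5.94%, and T cells 5 of 9 against 14.2%. The 10 genes varied together in single cells, so these counts are not independent of each other.

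The genes did not differ by the same factor within a class. In macrophages the lowest ratios were 0.356 (0.334 to 0.38) for Jun, 0.367 (0.349 to 0.385) for Egr1, 0.385 (0.323 to 0.46) for Hspa1a and 0.411 (0.378 to 0.447) for Ier2, the 4 genes past 2-fold. Fosb stood at 0.60 (0.54 to 0.666), and Zfp36, Fos, Junb, Atf3 and Dusp1 between 0.69 and 0.782. Fibroblasts showed another order. In Pi16-low fibroblasts Zfp36 was lowest at 0.564 (0.52 to 0.611) and Atf3 next at 0.676 (0.619 to 0.737), while Jun stood at 0.825 (0.788 to 0.864), Egr1 at 0.767 (0.737 to 0.798) and Junb at 0.943 (0.91 to 0.976). In Pi16-high fibroblasts Zfp36 was again lowest at 0.679 (0.596 to 0.772), Egr1 stood at 0.769 (0.727 to 0.813), and Jun and Atf3 at 1.03 (0.959 to 1.1) and 1.04 (0.946 to 1.15).

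A few values pointed the other way. Hspa1a in Pi16-high fibroblasts stood at 51.5 CPM on LFD and 91.1 CPM on HFD, a ratio of 1.77 (1.28 to 2.44) from 86 and 75 UMIs. A UMI of Hspa1a was seen in 32.9 and 42.9% of these barcodes. After thinning the shares were 5.2 and 4.76% (9 of 173 and 4 of 84 barcodes), which did not follow the level. Ier2 had ratios of 1.13 (1.03 to 1.24) in endothelial and mural barcodes and 1.64 (1.09 to 2.39) in T cells, but neither direction held under every alternative. On the log2 scale the first became -0.51 within the study's limits and -0.04 after thinning, and the second -0.18 in barcodes of 3000 to 10000 UMIs (3 HFD barcodes). Dusp1 stood at 1.1 (0.978 to 1.25) in endothelial and 1.1 (0.998 to 1.21) in endothelial and mural barcodes, with intervals that included 1. The mesothelial genes Upk3b and Msln in Pi16-high fibroblasts were at like levels on both diets, and without the barcodes that held at least 3 of their UMIs the summed ratio of the class was -0.33 on the log2 scale, against -0.20 with them.

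**Figure D3:**
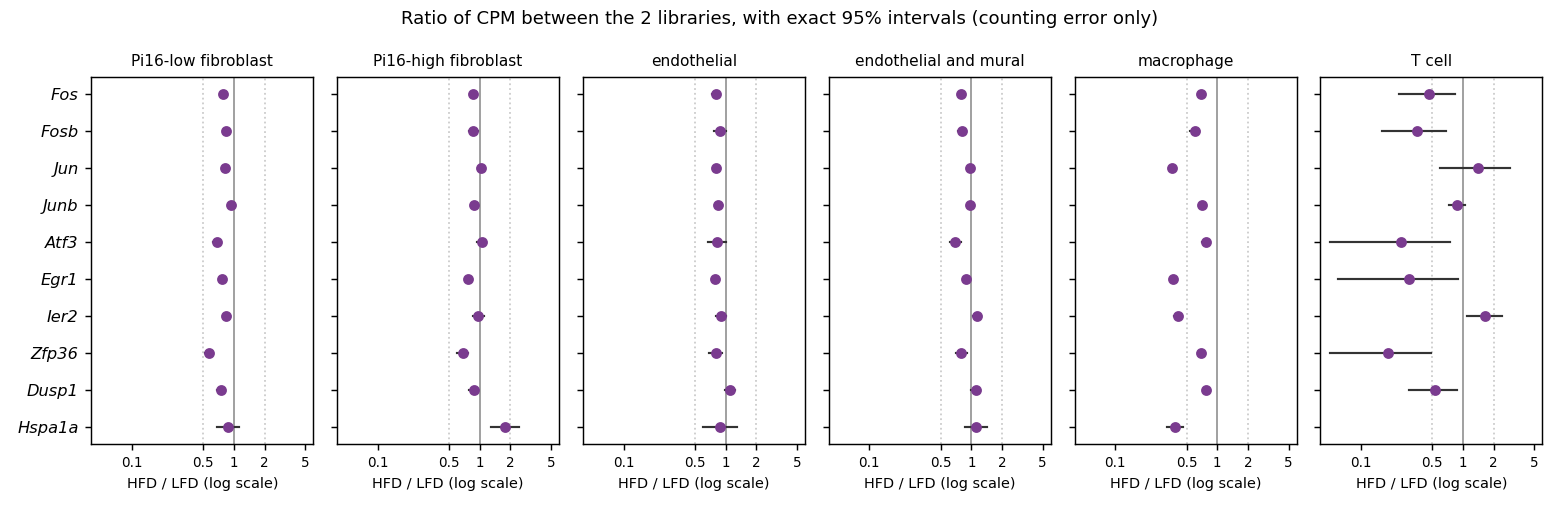
Ratio of CPM, HFD over LFD (log axis), for each of the 10 genes in each class, with exact 95% intervals for counting error. Hspa1a in T cells, with 0 UMIs on HFD, is not drawn. Solid lines mark 1 and dotted lines 0.5 and 2. In macrophages Jun, Egr1, Ier2 and Hspa1a lie left of 0.5, in the fibroblast and endothelial classes most points lie between 0.5 and 1 and a few above 1, and T cell intervals are wide.

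Macrophages on the 2 diets were not the same mixture. A split by other genes, added after the data were seen, took barcodes with at least 5 UMIs of the resident macrophage genes Cd163, Lyve1, Timd4, Cbr2 and F13a1 and fewer than 5 of Cd9, Trem2 and Gpnmb, and the reverse. Resident-gene barcodes made up 206 of 229 LFD macrophages and 121 of 320 HFD macrophages, and Cd9-gene barcodes 95 of 320 HFD macrophages and 0 of 229 LFD macrophages, which allows up to 1.31%. Resident-gene macrophages devoted 1.37% (1.35 to 1.39) of UMIs to the 10 genes on LFD and 1.04% (1.02 to 1.07) on HFD, and Cd9-gene macrophages 0.596% (0.583 to 0.609). Within resident-gene macrophages the HFD over LFD ratio of the sum was 0.762 (0.743 to 0.782), nearer to 1 than the 0.581 of the whole class. The Cd9-gene share lay within the interval of the HFD barcodes under 200 genes. With haemoglobin and mitochondrial UMIs left out, that interval was 0.584 to 1.3%. On this basis Cd9-gene macrophages at 0.638% (0.624 to 0.652) and HFD resident-gene macrophages at 1.11% (1.09 to 1.14) both lay within it. Neither share was therefore shown to lie above that level. Barcodes with neither gene set (17 on LFD and 71 on HFD) had 1.68% (1.57 to 1.79) and 0.982% (0.952 to 1.01), a gap wider than in resident-gene barcodes, at a median of 1725 and 5290 UMIs. Those with both (6 and 33) had 1.05% (0.961 to 1.13) and 0.772% (0.745 to 0.80).

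The genes with the lowest ratios in whole macrophages were those that were scarce in Cd9-gene macrophages. Jun stood at 1573 CPM in LFD resident-gene, 1030.4 CPM in HFD resident-gene and 253 CPM in HFD Cd9-gene macrophages. Egr1 stood at 2623, 1785 and 424 CPM in the same order, Ier2 at 875, 645 and 164 CPM and Hspa1a at 203, 175 and 16.8 CPM. Among HFD macrophages the ratio of Cd9-gene to resident-gene barcodes was 0.096 (0.0583 to 0.151) for Hspa1a, 0.238 (0.215 to 0.262) for Egr1, 0.246 (0.215 to 0.279) for Jun and 0.255 (0.216 to 0.30) for Ier2. Fosb and Atf3 were close to even, at 0.926 (0.772 to 1.11) and 0.949 (0.837 to 1.08), and Dusp1 stood at 0.831 (0.759 to 0.91). Junb had 3834, 1829 and 2075 UMIs in LFD resident-gene, HFD resident-gene and HFD Cd9-gene macrophages, and Jun 2158, 812 and 331 UMIs. Between the diets, resident-gene macrophages had ratios of 0.568 (0.481 to 0.667) for Fosb, 0.655 (0.603 to 0.71) for Jun and 0.681 (0.639 to 0.724) for Egr1, the 3 lowest of the 10. Hspa1a stood at 0.861 (0.697 to 1.06) there, an interval that included 1. Cd9-gene barcodes were deeper, with a median of 9287 UMIs against 6346, and the median mitochondrial shares were 5.8 and 5.75%.

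**Figure D4:**
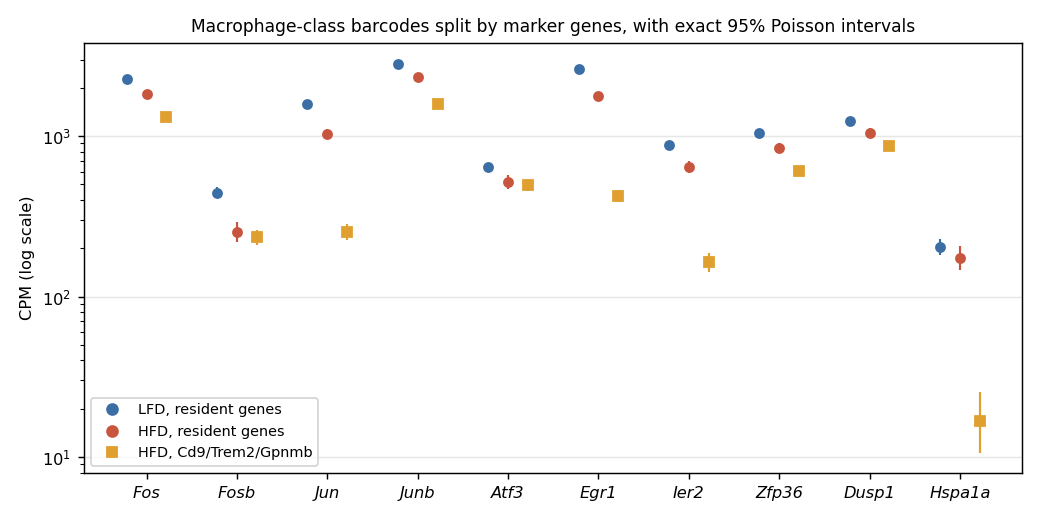
Level in CPM (log axis) of the 10 genes in macrophages split by marker genes, with resident-gene barcodes of LFD (blue circles) and HFD (red circles) and Cd9, Trem2 and Gpnmb barcodes of HFD (yellow squares), and exact 95% Poisson intervals. Jun, Egr1, Ier2 and Hspa1a drop far in the yellow squares, while Fosb, Atf3 and Dusp1 stay near the red circles.

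T cells gave the least certain ratios. The HFD class held 21 barcodes and 46943 UMIs, against 72 barcodes and 327944 UMIs on LFD. Junb, with 1138 and 143 UMIs, stood at 0.878 (0.733 to 1.05), and it alone made up 61.4% of the HFD sum. Zfp36 (151 and 4 UMIs), Atf3 (86 and 3 UMIs), Egr1 (71 and 3 UMIs), Fosb (178 and 9 UMIs) and Fos (180 and 12 UMIs) were the 5 genes at least 2-fold lower, with ratios of 0.185, 0.244, 0.295, 0.353 and 0.466. Those HFD counts are small. Of 4 macrophage markers, Mrc1, Csf1r and Adgre1 had 91.5, 88.4 and 51.8 CPM on LFD and 0 UMIs on HFD, and Cd68 had 73.2 and 21.3 CPM, while the B cell markers Cd79a and Ms4a1 had 54.9 and 51.8 CPM on LFD and 0 UMIs on HFD. Their part in these ratios was not tested. The direction of the T cell sum was not stable, as the log2 ratio of -0.44 became 0.057 within the study's limits of 200 to 2500 genes and under 5% mitochondrial UMIs (33 and 8 barcodes) and 0.016 when barcodes that met several rules were counted too (73 and 22 barcodes).

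Depth and mitochondrial share, as signs of cell quality, were set beside the values. Median mitochondrial share was 4.09 and 4.23% in Pi16-low fibroblasts, 3.41 and 4.15% in endothelial barcodes, 3.78 and 4.61% in endothelial and mural barcodes, 4.71 and 5.6% in T cells and 5.68 and 5.6% in macrophages, on LFD and HFD. The nuclear RNA Malat1 stood at 26494 and 21346 CPM in Pi16-low fibroblasts, 18495 and 16845 CPM in Pi16-high fibroblasts, 21487 and 20514 CPM in endothelial barcodes, 21498 and 22376 CPM in endothelial and mural barcodes, 15444 and 12474 CPM in macrophages and 22309 and 22133 CPM in T cells, so it was lower on HFD beside the 10 genes in both fibroblast classes, endothelial barcodes and macrophages, nearly level in T cells and higher in endothelial and mural barcodes. Its part in the ratios was not tested. Macrophages kept a ratio below 1 in every bin, at 0.454 (0.378 to 0.542) under 3000 UMIs, 0.718 (0.703 to 0.734) from 3000 to 10000 and 0.518 (0.494 to 0.544) above, and at 0.595 (0.576 to 0.614), 0.583 (0.569 to 0.597) and 0.523 (0.469 to 0.583) with under 5, 5 to 10 and at least 10% mitochondrial UMIs. The bin under 3000 UMIs held 14 HFD barcodes, and those of at least 10000 UMIs and of at least 10% mitochondrial UMIs held 16 LFD barcodes each. Pi16-low fibroblasts were not below 1 in every bin. Their ratio was 1.04 (0.922 to 1.17) under 3000 UMIs, 0.843 (0.828 to 0.859) from 3000 to 10000 and 0.701 (0.676 to 0.726) above, and 0.798 (0.785 to 0.813) under 5% mitochondrial UMIs but 1.04 (0.989 to 1.1) from 5 to 10%. The bin from 5 to 10% also gave ratios at or above 1 in 3 more classes, at 1.16 (1.07 to 1.25) in Pi16-high fibroblasts, 1.0 (0.91 to 1.1) in endothelial barcodes and 1.26 (1.17 to 1.35) in endothelial and mural barcodes, where the LFD library held 25, 13 and 7 barcodes. Under 5% mitochondrial UMIs, where most barcodes of these classes lay, the ratios were 0.845 (0.824 to 0.866), 0.837 (0.809 to 0.865) and 0.945 (0.922 to 0.969). At 10% and above the fibroblast and endothelial classes held 14 barcodes or fewer per diet, with ratios of 0.464 (0.408 to 0.527) in Pi16-low fibroblasts, 1.53 (1.02 to 2.29) in Pi16-high fibroblasts (2 and 1 barcodes), 0.654 (0.551 to 0.774) in endothelial and 0.596 (0.486 to 0.727) in endothelial and mural barcodes. T cells had 0.974 (0.802 to 1.17), 0.548 (0.434 to 0.685) and 1.4 (0.846 to 2.22) in the 3 mitochondrial bins, the last from 5 and 2 barcodes. By depth, the largest ratios came from the thinnest bins, under 3000 UMIs, at 3.98 (2.45 to 6.37) in Pi16-high fibroblasts from 6 LFD barcodes and 1 HFD barcode, and 2.2 (1.25 to 4.17) in endothelial and mural barcodes from 1 and 5. From 3000 to 10000 UMIs these classes stood at 0.809 (0.782 to 0.837) and 0.928 (0.885 to 0.973), and at 10000 or more at 0.96 (0.929 to 0.991) and 0.896 (0.873 to 0.919). Endothelial barcodes were below 1 in the 3 depth bins, at 0.832 (0.764 to 0.905), 0.892 (0.855 to 0.929) and 0.703 (0.661 to 0.747), and T cells stood at 0.86 (0.726 to 1.02) under 3000 UMIs and 0.527 (0.383 to 0.709) from 3000 to 10000 (23 LFD and 3 HFD barcodes).

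Within a class and diet the genes varied together from barcode to barcode. Pearson's r of log normalized values was computed for the 45 pairs in the 11 class and diet sets with at least 40 barcodes of 1000 UMIs or more, as a description, since barcodes of a set share a library. The median r over pairs ran from 0.19 in LFD T cells to 0.57 in LFD endothelial and mural barcodes. The highest mean r over sets was 0.57 for Junb and Egr1, then 0.55 for Fos and Egr1 and 0.54 for Fos and Fosb. Hspa1a took the least part, with a mean r of 0.20 with the sum of the 10 against 0.80 for Junb and 0.76 for Fos, each of which is part of that sum. Thinning to 1000 UMIs lowered the median r to between 0.03 and 0.18, and the mean r of Junb and Egr1 to 0.34. The sum of the 10 had an r of -0.48 and -0.50 with mitochondrial share in endothelial and mural barcodes and between -0.28 and -0.05 in the other sets.

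**Figure D5:**
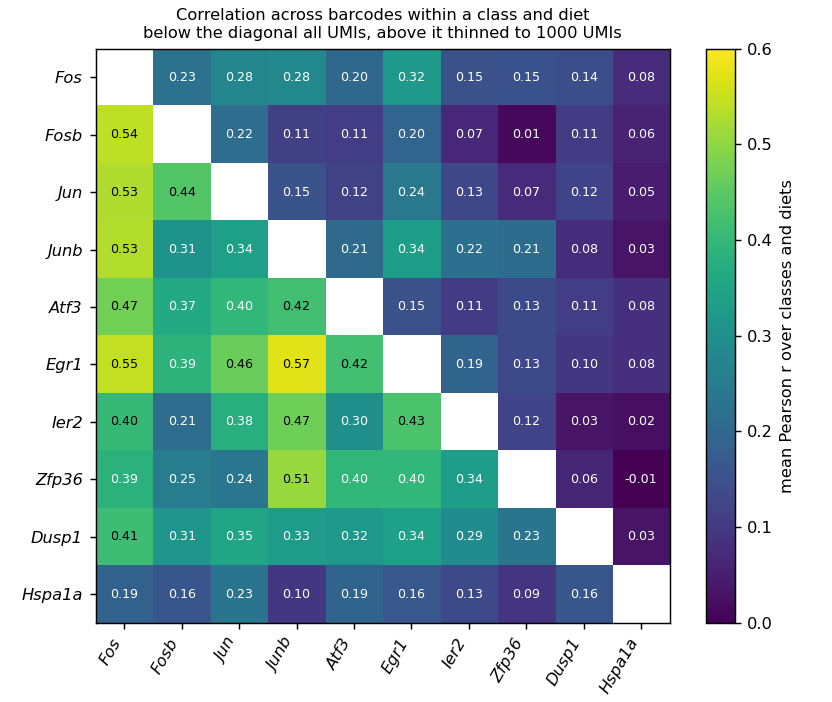
Mean Pearson r over the 11 class and diet sets for each pair of the 10 genes, with all UMIs below the diagonal and barcodes thinned to 1000 UMIs above it, on a colour scale from 0 to 0.6. Values below the diagonal reach 0.57 for Junb and Egr1, the Hspa1a row is lowest, and all values shrink after thinning.

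Among 3314 other genes seen in at least 10% of barcodes of every set, those most like the sum of the 10 by mean r over the 11 sets included Btg2 (0.52), Klf4 (0.49), Neat1 (0.44), Nr4a1 (0.43), Socs3 (0.41), Cdkn1a (0.40), Nfkbiz (0.40), H3f3b (0.40) and Jund (0.40). The median over all genes compared was 0.02. Btg2 is an antiproliferative early response gene, Klf4 and Nr4a1 are early transcription factors, Socs3 a feedback inhibitor of cytokine signalling, and Jund the third Jun protein of AP-1.

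The rest of the early response was read from lists of related genes, by the number at least 2-fold higher or lower on HFD among members with at least 50 UMIs and by the median log2 ratio, with 0.5 UMIs added. Over all genes the median lay between -0.02 and 0.02 in the 6 classes, each scaled to its own total. Of all genes with at least 50 UMIs, 1.5% were at least 2-fold higher in Pi16-low fibroblasts, 1.02% in Pi16-high fibroblasts, 0.736% in endothelial, 0.828% in endothelial and mural barcodes, 5.41% in macrophages and 3.05% in T cells, and the shares at least 2-fold lower are those given above. For the 10 genes the median was -0.31 in Pi16-low fibroblasts, -0.18 in Pi16-high fibroblasts, -0.26 in endothelial, -0.12 in endothelial and mural barcodes, -0.64 in macrophages and -1.05 in T cells. Other inducible transcription factors, a list of AP-1, EGR, NR4A, KLF and C/EBP factors that also holds Irf1, had a median of -0.41 in macrophages (4 of 22 lower, 2 higher), 0.03 in Pi16-low fibroblasts (1 of 20 lower, 0 higher), -0.16 in Pi16-high fibroblasts (2 of 21 lower, 0 higher), -0.08 in endothelial (1 of 17 lower, 0 higher), 0.04 in endothelial and mural barcodes (1 of 19 lower, 0 higher) and -0.64 in T cells (5 of 12 lower, 0 higher). Klf2, a factor that keeps endothelium and leukocytes quiet, stood at 0.368 (0.336 to 0.403) in macrophages and 0.945 (0.837 to 1.07) in endothelial barcodes, and Klf4 at 0.425 (0.389 to 0.464) in macrophages and 1.08 (1.02 to 1.14) in Pi16-low fibroblasts. Jund stood at 0.749 (0.693 to 0.81) in macrophages and 0.87 (0.813 to 0.93) in Pi16-low fibroblasts. Irf1, an interferon-induced factor, was at least 2-fold lower in 4 classes, with 0.219 (0.166 to 0.286) in Pi16-low fibroblasts, 0.329 (0.227 to 0.466) in Pi16-high fibroblasts, 0.451 (0.331 to 0.607) in endothelial and 0.431 (0.332 to 0.556) in endothelial and mural barcodes, and at 0.556 (0.467 to 0.662) in macrophages and 1.29 (0.485 to 2.92) in T cells. It was the single gene of the list counted as 2-fold lower in Pi16-low fibroblasts, endothelial barcodes and endothelial and mural barcodes.

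Feedback inhibitors and RNA decay factors had a median of -0.61 in macrophages, where 7 of 27 were at least 2-fold lower and 4 at least 2-fold higher, and between -0.15 and 0.11 in the fibroblast and endothelial classes, with 0, 2, 0 and 0 lower and 0, 0, 1 and 0 higher. T cells had -0.23, with 3 of 17 lower and 1 higher. Nfkbia, the inhibitor of NF-kappa B, stood at 1.06 (1.01 to 1.12) in macrophages and 1.39 (1.24 to 1.56) in endothelial and mural barcodes, Btg2 at 0.642 (0.591 to 0.697) and 0.989 (0.927 to 1.06), and Mcl1, a survival factor, at 0.888 (0.83 to 0.95) and 0.997 (0.885 to 1.12).

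Heat shock proteins other than Hspa1a had medians between 0.06 and 0.29 in the 6 classes, above 0 in each, with 0 at least 2-fold lower or higher outside macrophages and 2 lower and 1 higher of 19 in macrophages. Hspa8, the constitutive Hsp70, stood at 1.2 (1.14 to 1.26) in macrophages and 1.23 (1.17 to 1.31) in Pi16-low fibroblasts, Hsp90ab1 at 1.18 (1.12 to 1.24) and 1.22 (1.15 to 1.3), and the inducible Hsp90aa1 at 0.825 (0.766 to 0.889) and 0.971 (0.888 to 1.06). Genes of the unfolded protein and integrated stress response had medians of 0.17 in Pi16-low and 0.17 in Pi16-high fibroblasts, -0.03 in endothelial, 0.11 in endothelial and mural barcodes, -0.14 in macrophages (1 of 15 higher, 1 lower) and -0.21 in T cells (1 of 8 lower), with 0 past 2-fold in the other 4 classes. Hspa5, the chaperone BiP of the endoplasmic reticulum, stood at 1.23 (1.16 to 1.31) in Pi16-low fibroblasts and 0.907 (0.851 to 0.966) in macrophages, the calcium-binding chaperone Calr at 1.22 (1.12 to 1.32) and 1.46 (1.35 to 1.58), and the disulfide isomerase Pdia3 at 1.12 (1.01 to 1.24) and 1.11 (0.998 to 1.23). The oxidative stress and metallothionein list had a median of 0.41 in macrophages (3 of 17 higher, 1 lower), with the ferritin chains Fth1 and Ftl1 at 1.77 (1.73 to 1.81) and 1.8 (1.76 to 1.83) and the metallothionein Mt1 at 0.604 (0.571 to 0.638), and of -0.17 in Pi16-low fibroblasts, with Mt1 at 0.784 (0.755 to 0.814). Pi16-high fibroblasts and endothelial barcodes each had 1 gene of that list at least 2-fold lower, T cells 2, and Pi16-low fibroblasts and endothelial and mural barcodes 0. Housekeeping genes had medians from -0.01 to 0.30, the highest in macrophages, where the ribosomal protein gene Rplp0 stood at 1.68 (1.59 to 1.79). Whether the lower early response on HFD came with the tissue, the diet or a difference in dissociation cannot be told apart with 1 library per diet.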

How the data were processed

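The deposited tables list counts of UMIs for each gene in each barcode, unscaled, which the authors obtained from Cell Ranger and the mm10 genome. The methods give a later Cell Ranger release than the file header, which names 3.0.2. The tables hold barcodes outside the limits in the methods, 200 to 2500 genes and under 5% mitochondrial UMIs, which keep 294 LFD and 352 HFD barcodes. Here all barcodes with at least 200 genes were kept, and doublets were kept.

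The members, classes and gene lists were chosen with earlier results of these data known, so none is independent evidence. All 10 members are named, and from each list the 3 genes with the most UMIs and any gene at least 2-fold changed the same way in 3 classes. The 10 genes most like the member sum were taken by mean correlation, and 1 of them is not reported here. CPM is the summed UMIs of a class over all its UMIs. Background shares cover genes with at least 50 UMIs over both libraries. Correlations used log values per 10000 UMIs. With 1 library per diet no differential test was run. The ratio intervals were tested on simulated Poisson counts without spread between barcodes or libraries, so that check covers counting error only. Thinning was tested on simulated counts too. Promoter windows came from RefSeq (GRCm38.p6). Positions came from GENCODE M21. 

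The tools were scipy 1.17.1 for the intervals, numpy 2.4.6 and pandas 2.3.3 for the sums and matplotlib 3.10.9 for the plots, under Python 3.11.15. Scrublet was run in scanpy 1.11.5 at an expected rate of 1% and marked 11 LFD and 24 HFD barcodes. Alternatives were the study's limits, a 10% mitochondrial limit, no doublets, several-rule barcodes counted in each class, doubled or depth-scaled class thresholds, another denominator, means over single barcodes and thinning to 1000 UMIs. Depth bins, mitochondrial bins, the macrophage split and the class without mesothelial genes were added after the data were seen.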

Additional observations from a re-analysis of the deposited data

Results flagged for a closer look

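Barcodes under 200 genes, which no comparison between the diets used, also held these messages. The 10 genes gave 0.0288% of UMIs (0.0181 to 0.0436) in the 56 LFD barcodes and 0.112% (0.0734 to 0.165) in the 27 HFD barcodes. Haemoglobin took 86.7 and 73.9% of the UMIs of these barcodes, and without it the shares were 0.217 and 0.43%.

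A few genes went opposite ways in different classes between the diets, and these differences were not tested. Ier2 had a log2 ratio, HFD over LFD, of 0.18 in endothelial and mural barcodes and 0.71 in T cells, while it was -0.25 in Pi16-low fibroblasts and -1.28 in macrophages. Neither of the first 2 values kept its direction under every alternative, as they fell as low as -0.51 and -0.18. Hspa1a had a log2 ratio of 0.82 in Pi16-high fibroblasts and -1.38 in macrophages. In Pi16-high fibroblasts the share of barcodes with a UMI after thinning did not follow it, at 5.2% on LFD and 4.76% on HFD. In resident-gene macrophages alone the unlogged ratio of Hspa1a was 0.861 (0.697 to 1.06), an interval that included 1, and that of Ier2 was 0.737 (0.663 to 0.818).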

How the results depend on the processing

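Every value here is the log2 ratio, HFD over LFD, of the summed 10 genes unless a gene is named. The main values were -0.31 in Pi16-low fibroblasts, -0.20 in Pi16-high fibroblasts, -0.25 in endothelial barcodes, -0.15 in endothelial and mural barcodes, -0.78 in macrophages and -0.44 in T cells. Apart from the bins of depth and mitochondrial share, of which those given with the results include several at or above 0, the log2 ratio stayed below 0 under each alternative run in the first 5 classes and under 8 of 10 in T cells, while the size moved by more than the counting interval in 31 of 62 values.

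Within the study's limits the values, in the same order of classes, were -0.36, -0.35, -0.21, -0.76 (3 and 8 barcodes), -0.72 and 0.057. With barcodes of several rules counted in each class they were -0.33, -0.24, -0.19, -0.22, -0.74 and 0.016. Doubled class thresholds gave -0.27 in Pi16-high fibroblasts and -0.20 in endothelial barcodes, and depth-scaled thresholds -0.30 in endothelial barcodes. Without mitochondrial, ribosomal protein and haemoglobin genes in the denominator macrophages stood at -0.75. Means over single barcodes gave -0.24 in Pi16-low fibroblasts, -0.18 in endothelial and mural barcodes, -0.59 in macrophages and -0.24 in T cells. Thinning gave -0.27 in Pi16-low fibroblasts, -0.58 in macrophages and -0.18 in T cells. Barcodes of 3000 to 10000 UMIs gave -0.25, -0.31, -0.17, -0.11, -0.48 and -0.92 in the order above, the last from 23 LFD and 3 HFD barcodes. Pi16-high fibroblasts without mesothelial genes stood at -0.33, and resident-gene macrophages at -0.39. The causes were not tested.

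Of 59 values of single genes in single classes, 50 were below 0, and 39 of these stayed below 0 under each alternative that gave a value. Of the other 9, only 3 stayed above 0 under each. Past 2-fold and reversed were T cell values only: Atf3 at 0.68 within the study's limits, Fos at 1.23 and Egr1 at 0.58 with several-rule barcodes counted, and Fos at 0.070 after thinning. Leaving out barcodes shared by both libraries was not run, as 0 were shared. No paired analysis was possible because each diet has 1 library.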
